A study of Mus musculus with 12 samples.

Results

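Metallothioneins are small, cysteine-rich proteins that hold zinc and copper in the cytosol and release zinc on demand. In mice their genes are switched on by zinc through the metal-responsive transcription factor MTF1, and also by glucocorticoids, by interleukin-6 acting through STAT3 and by oxidants. Zinc transporters set the supply of the metal: proteins of the Slc30 family carry zinc out of the cytosol, and proteins of the Slc39 family carry it in.

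The genes described here are Mt1 and Mt2, the 2 metallothioneins found in most mouse tissues, Slc30a1, which exports zinc across the plasma membrane, and Slc39a14, an importer of zinc, iron and manganese that interleukin-6 induces in mouse liver. They were found by symbol in the platform annotation, which gave them 6 probe sets of 22626, and they are 4 of the 12393 genes that the annotation names. The Mt1 and Mt2 signals themselves were part of the choice: both had been seen to be high with ventilation in wild-type lungs and at rest in Nrf2-deficient lungs. Their differences in those 2 contrasts, and the interaction that is built from them, are therefore given as a description without a test. Slc30a1 and Slc39a14 were chosen by name, with no pattern stated but with earlier results of these data known. Their differences were tested, and the p-values take no account of that choice.

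Lung RNA of CD-1/ICR mice was measured on 12 arrays of the Affymetrix 430A design, with 4 groups of 3. The KO HVT group was Nrf2-/- mice ventilated mechanically for 2 h at a high tidal volume of 30 ml/kg, the KO SpV group was Nrf2-/- mice that breathed spontaneously for 2 h, and the WT HVT and WT SpV groups were the matching Nrf2+/+ mice. Nrf2 is a transcription factor that binds antioxidant response elements and drives detoxifying genes, its own gene is named Nfe2l2, and the title of the series links oxidative stress with ventilator-induced lung injury. No label gives the age or sex of the mice, the exact deletion, or whether arrays of a group came from separate animals, so a p-value here covers only the spread among these arrays, and that spread may be technical. The tissue is named as whole lung for WT SpV array 1 and as the left lobe for the other 11 arrays.

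KO SpV array 1 stood apart from the other 11. Its mean deposited signal, trimmed at both ends, was 73.87 against 181.6 to 469.5, and the 3′ to 5′ ratio of its beta-actin controls was 8.756 against 1.392 to 3.105. The 3 KO HVT arrays came next, with mean deposited signals of 193.9, 246.6 and 181.6 against 279 to 469.5 on the remaining arrays. Their actin ratios were 3.105, 2.213 and 3.019, above the 1.986, 1.577 and 1.529 of WT HVT. In HVT lungs genotype therefore went together with array signal and actin ratio, and the comparisons of these groups below carry that limit. Nfe2l2 had signals of 36.2 to 61.3 on the 6 KO arrays and 2144.3 to 3298.2 on the 6 WT arrays, so every array went with its genotype label. Lung markers were present, with surfactant genes of alveolar type II cells averaging up to 21505.1 and club cell genes 20242.9 to 24277 in normalized signal, and heart muscle markers were present as well, averaging 1979 to 8474.9. Signals below are linear values after scaling and quantile normalization, and differences are on the log2(signal + 16) scale with the SE of a limma fit to all 12 arrays. A gene was called where its p, adjusted over all 9294 genes tested, was under 0.05.

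The genes of Mt1 and Mt2 lie side by side on chromosome 8, with 0 other protein-coding genes between them in the RefSeq table. Their start regions and that of Slc30a1 on chromosome 1 are shown because they carry the short sequences through which the known regulators act. Each is a RefSeq window of build GRCm38.p6, plus strand, from 250 bases before to 50 bases after the annotated start, at chr8:94178839-94179138 for Mt1, chr8:94172368-94172667 for Mt2 and chr1:191906531-191906830 for Slc30a1. Capitals mark matches, on either strand, to the core of the metal response element bound by MTF1, searched as TGCACNC and TGCGCNC, and to the core of the antioxidant response element, searched as TGACNNNGC. No match overlapped another.
Mt1: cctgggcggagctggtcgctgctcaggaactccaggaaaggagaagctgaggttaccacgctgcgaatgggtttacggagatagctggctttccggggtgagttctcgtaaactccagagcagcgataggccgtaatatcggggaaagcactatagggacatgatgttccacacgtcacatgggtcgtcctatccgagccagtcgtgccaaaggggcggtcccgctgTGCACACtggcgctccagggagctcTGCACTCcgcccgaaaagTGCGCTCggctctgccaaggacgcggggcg
Mt2: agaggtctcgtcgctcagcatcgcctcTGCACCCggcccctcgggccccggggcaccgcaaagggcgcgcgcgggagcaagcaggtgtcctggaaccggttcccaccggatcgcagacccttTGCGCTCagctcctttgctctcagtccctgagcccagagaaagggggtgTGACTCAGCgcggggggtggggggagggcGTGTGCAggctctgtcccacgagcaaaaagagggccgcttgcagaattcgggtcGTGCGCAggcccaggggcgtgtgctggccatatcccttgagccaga
Slc30a1: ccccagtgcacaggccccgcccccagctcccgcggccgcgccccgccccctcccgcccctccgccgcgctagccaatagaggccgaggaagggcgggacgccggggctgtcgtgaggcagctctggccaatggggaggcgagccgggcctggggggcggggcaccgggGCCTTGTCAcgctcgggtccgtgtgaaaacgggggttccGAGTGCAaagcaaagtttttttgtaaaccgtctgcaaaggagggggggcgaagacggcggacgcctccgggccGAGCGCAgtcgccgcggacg

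The Mt1 window held 3 metal response cores, beginning at positions -23, 3 and 21 from the start, and 0 antioxidant cores. Bases outside a window were not searched, so each count, 0 included, holds only for the window set by the annotated start. Whether that start is the one mainly used was not checked. The 0 therefore does not show that the Mt1 promoter lacks an antioxidant core. The Mt2 window held 4 metal response cores, beginning at -223, -128, -50 and 5, and 1 antioxidant core at -79. The Slc30a1 window held 2 metal response cores, at -43 and 31, and 1 antioxidant core at -82. Among 32851 promoter windows of the same length, 12.6% held TGCACNC, 15.4% held TGCGCNC and 12.4% held TGACNNNGC. At least 2 metal response cores stood in 7.11% of them, at least 3 in 1.97% and at least 4 in 0.517%. A match is a description of the letters and not evidence of binding in these lungs, and none of the arrays measured binding. Slc39a14, on chromosome 14, is named only.

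**Figure D1:**
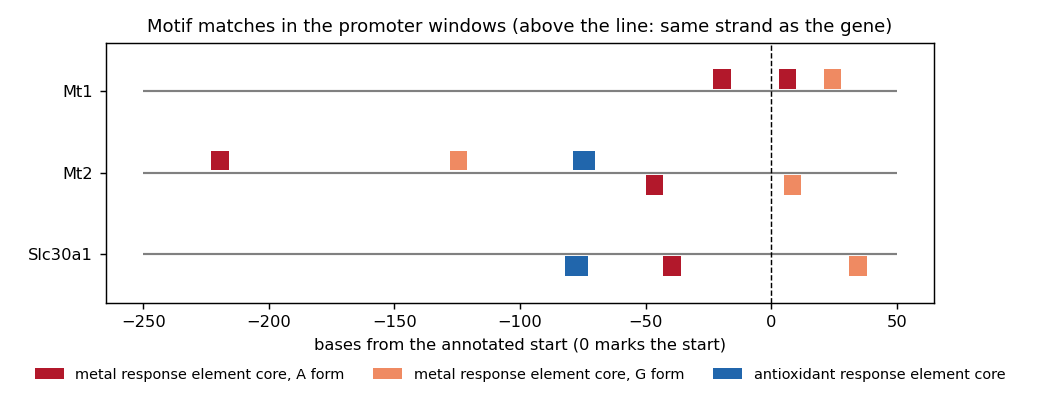
Positions of the motif matches in the promoter windows of Mt1, Mt2 and Slc30a1, in bases from the annotated start (dashed line), with matches on the strand of the gene above each grey line and matches on the opposite strand below it. Within these windows Mt1 has 3 metal response cores and no antioxidant core, Mt2 has 4 and 1, and Slc30a1 has 2 and 1. Bases outside the windows were not searched.

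Mt1 was low in one group only, the WT SpV lungs. The signal of its brighter probe set was 5188, 5197.5 and 5510 on the KO HVT arrays, 3630.6, 5715.3 and 6771 on the KO SpV arrays, 8517.3, 4707.7 and 6925.7 on the WT HVT arrays, and 1592.1, 1526.2 and 1042.9 on the WT SpV arrays. All 9 arrays of the other groups lay above every WT SpV array, and those 3 groups overlapped one another. The group means were 5298.5 ± 183.2 in KO HVT, 5372.3 ± 1598 in KO SpV, 6716.9 ± 1913.4 in WT HVT and 1387.1 ± 299.9 in WT SpV (SD, n = 3 each).

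As a description of the pattern that chose it, Mt1 differed by 2.25 ± 0.25 on the log2 scale between WT HVT and WT SpV, a 4.74-fold higher signal in WT HVT. That was the 8th highest difference of the 9294 genes. Between KO SpV and WT SpV it differed by 1.92 ± 0.25, a 3.78-fold higher signal in KO SpV and the 9th highest difference. The KO SpV group held the array that stood apart, and that array had the lowest Mt1 signal of the KO arrays. Without it the KO SpV minus WT SpV difference was 2.15 ± 0.22.

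Ventilation left the Mt1 signal of KO lungs without a called change. The KO HVT minus KO SpV difference was 0.03 ± 0.25, with a 95% interval of -0.53 to 0.58 and an adjusted p of 0.984 in limma. Without KO SpV array 1 it was -0.22 ± 0.22 (adjusted p = 0.571). In this comparison 0 of 9294 genes were called (0%), while 987 had an unadjusted p under 0.05, and leaving out that 1 array raised the number called to 600. The KO HVT minus WT HVT difference of Mt1 was -0.30 ± 0.25, with an interval of -0.85 to 0.25 (adjusted p = 0.643), where 69 genes were called (0.742%), or 485 without KO SpV array 1. Both tests share a group with a contrast that chose the gene. Mt1 was chosen for high values in KO SpV and WT HVT lungs, which can pull these differences down. The intervals take no account of that choice, so they neither bound the difference nor show that the groups were equal.

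Mt2 had the same low group. Its signal was 9170.2, 7637.6 and 9127.7 on the KO HVT arrays, 2880.9, 7384.2 and 10115 on the KO SpV arrays, 9657, 5800.2 and 8625.6 on the WT HVT arrays, and 2250.7, 1694.3 and 1481.5 on the WT SpV arrays. Every array outside the WT SpV group was again above all 3 arrays inside it, and KO SpV array 1, the one that stood apart, was the closest to them. The means were 8645.2 ± 872.8 in KO HVT, 6793.3 ± 3653 in KO SpV, 8027.6 ± 1996.7 in WT HVT and 1808.9 ± 397.2 in WT SpV (SD, n = 3 each). The first 3 of these overlapped, so their order does not go beyond the spread between arrays.

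As a description, Mt2 was 4.38-fold higher in WT HVT than in WT SpV, a log2 difference of 2.13 ± 0.36 and the 14th highest of the 9294 genes. It was 3.34-fold higher in KO SpV than in WT SpV, a log2 difference of 1.74 ± 0.36 and the 16th highest. Without KO SpV array 1 the KO SpV minus WT SpV difference of Mt2 was 2.22 ± 0.22. In KO lungs the HVT minus SpV difference of Mt2 was 0.52 ± 0.36, with an interval of -0.27 to 1.31 (adjusted p = 0.643 in limma), and without that array it was 0.00 ± 0.22 (adjusted p = 0.996). The KO HVT minus WT HVT difference was 0.13 ± 0.36, with an interval of -0.65 to 0.92 (adjusted p = 0.907). Neither difference was called. Both reuse the KO SpV or WT HVT values for which Mt2 was chosen, so their intervals do not bound the difference, as for Mt1.

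**Figure D2:**
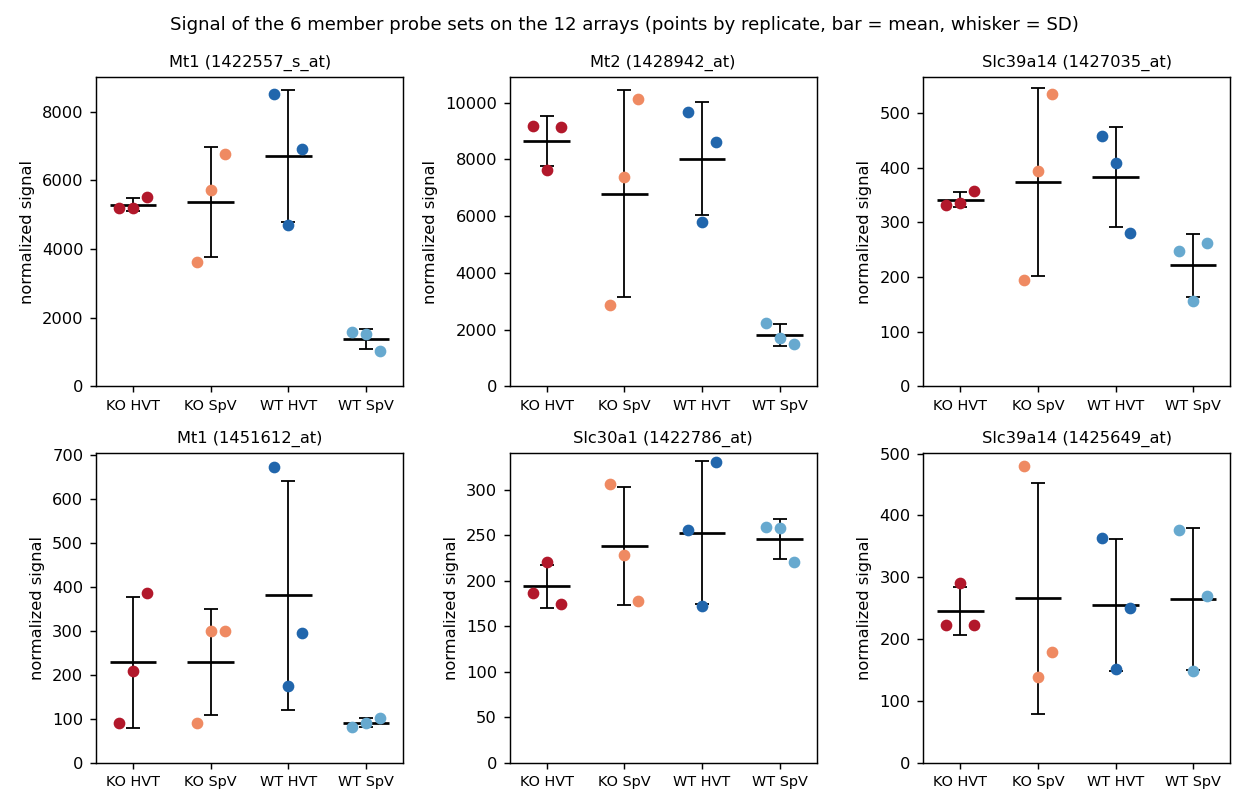
Normalized signal (linear) of the 6 probe sets of Mt1, Mt2, Slc30a1 and Slc39a14 on 12 arrays, 3 per group; points are arrays in the order of replicates 1 to 3, bars are group means and whiskers are SD. The WT SpV arrays of the brighter Mt1 probe set and of Mt2 lie below all other arrays, while the Slc30a1 groups overlap.

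The response to ventilation thus had a different size in the 2 genotypes by description. The KO response minus the WT response was -2.22 ± 0.36 for Mt1, the 12th lowest of the 9294 values, and -1.61 ± 0.51 for Mt2, the 45th lowest. Without KO SpV array 1 these were -2.44 ± 0.30 and -2.09 ± 0.29. Since this quantity is made from the contrasts that chose the genes, no test is given for them. Over all genes 0 of 9294 interactions were called in limma (0%), with 452 at an unadjusted p under 0.05, and 82 were called without KO SpV array 1.

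**Figure D3:**
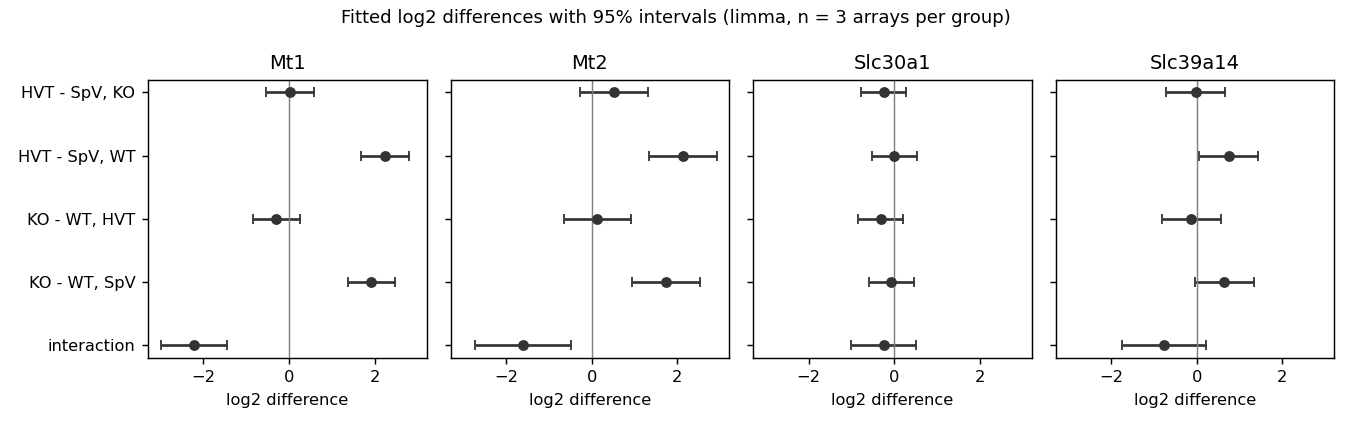
Fitted log2 differences of Mt1, Mt2, Slc30a1 and Slc39a14 with 95% intervals from limma, n = 3 arrays per group, for ventilation in each genotype, for genotype under each kind of breathing and for the interaction (KO response minus WT response). Mt1 and Mt2 stand at 2.25 and 2.13 for ventilation in WT and near 0 to 0.52 for ventilation in KO, and the 5 intervals of Slc30a1 include 0. Mt1 and Mt2 were chosen for their differences in WT ventilation and in genotype under SpV. Their intervals take no account of that choice, and those for these differences and the interaction are not a test.

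A further Mt1 probe set was much dimmer and more variable. Its signal was 90.7, 208.9 and 385.1 on the KO HVT arrays, 90.3, 298.4 and 299.1 on KO SpV, 672.9, 174.4 and 295.1 on WT HVT, and 81.9, 90.7 and 101 on WT SpV. The WT HVT arrays were again all above the WT SpV arrays, but KO HVT array 1 and KO SpV array 1 fell among the WT SpV values. The log2 differences were 1.69 ± 0.55 for WT HVT minus WT SpV and 1.04 ± 0.55 for KO SpV minus WT SpV, so the probe sets of Mt1 had the same direction and differed in size. The name of the brighter probe set ends in s_at, which marks probes that can also bind related transcripts, so a share of Mt2 message in the Mt1 signal was not tested.

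Mt1 and Mt2 followed each other closely from array to array. Over the 12 arrays their log2 signals had a Pearson r of 0.957, and each was the closest of all 9294 genes to the other. The r was 0.980 without KO SpV array 1, and 0.892 after the mean of each group had been removed, which leaves only the variation inside groups. These values are descriptions: the arrays share normalization and RNA quality, and the neighbouring genes may share probes. Both genes were also chosen for the same pattern of groups, which by itself raises r and the rank over all arrays. The next closest genes to Mt1 were Plekhh1 (r = 0.914), Ezr (0.912), Anxa1 (0.907) and Etf1 (0.901), and those to Mt2 were Ezr (0.947), Rps25 (0.932), Ctse (0.932) and Anxa1 (0.920). Ezr encodes ezrin, which ties the membrane to actin, and Anxa1 encodes annexin A1, a glucocorticoid-induced phospholipid-binding protein.

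**Figure D4:**
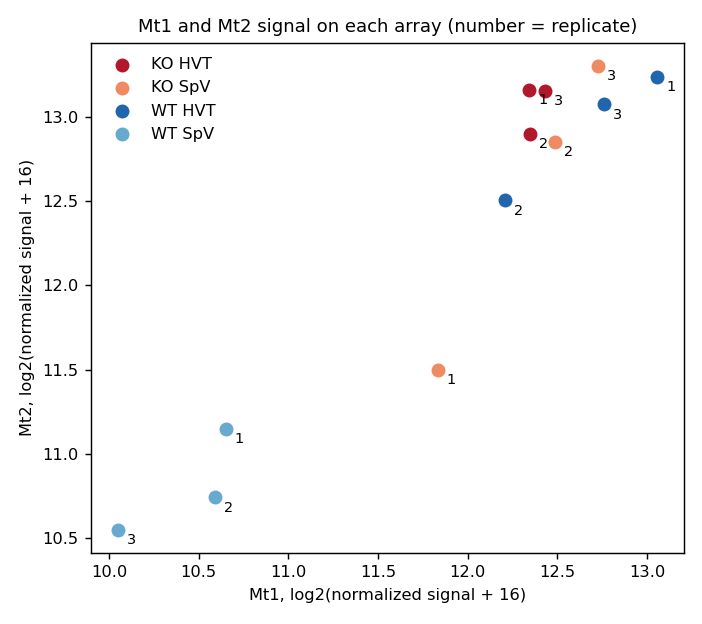
Log2(normalized signal + 16) of Mt2 against Mt1 on each of the 12 arrays, coloured by group and numbered by replicate (r = 0.957). The 3 WT SpV arrays form the low end, KO SpV array 1 lies between them and the rest, and the other 8 arrays overlap at the high end. Both genes were chosen for the same pattern of groups, which by itself raises r.

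Slc30a1, the plasma membrane exporter, did not follow the metallothioneins. Its signal was 186.6, 220.8 and 175.2 on the KO HVT arrays, 307.1, 229.1 and 178.2 on KO SpV, 256, 173 and 330.7 on WT HVT, and 259.2, 258.2 and 221.1 on WT SpV. All 4 groups overlapped at low signal. The means were 194.2 ± 23.7 in KO HVT, 238.1 ± 64.9 in KO SpV, 253.2 ± 78.9 in WT HVT and 246.2 ± 21.7 in WT SpV (SD, n = 3 each).

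The HVT minus SpV difference of Slc30a1 was -0.25 ± 0.24 in KO lungs (interval -0.78 to 0.28, adjusted p = 0.751) and 0.00 ± 0.24 in WT lungs (interval -0.53 to 0.53, adjusted p = 0.999). The KO minus WT difference was -0.32 ± 0.24 in HVT lungs (interval -0.85 to 0.21, adjusted p = 0.605) and -0.07 ± 0.24 in SpV lungs (interval -0.60 to 0.46, adjusted p = 0.927), all in limma. The interaction was -0.25 ± 0.35 (adjusted p = 1). None of these was called. The WT ventilation interval ends at 0.53, below the 2.25 and 2.13 of Mt1 and Mt2. Those 2 genes were chosen for that contrast, so their values may be too high, and the gap to Slc30a1 was not tested. In WT ventilation 7 of all genes were called (0.0753%) and in the SpV comparison of genotypes 31 (0.334%). Averaged over genotypes the ventilation difference was -0.13 ± 0.17 (adjusted p = 0.799), where 10 genes were called (0.108%), and averaged over breathing the genotype difference was -0.20 ± 0.17 (adjusted p = 0.553), where 348 were (3.74%). Without KO SpV array 1 these 4 counts of called genes were 45, 173, 647 and 625, and Slc30a1 was among none of them. Its r with Mt1 was -0.151 and with Mt2 -0.335 over the 12 arrays, and the gene closest to it was Bub3 (0.923), a spindle checkpoint protein.

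Slc39a14, the importer, had a group order like that of Mt1 but with small differences that missed the threshold. The signal of its brighter probe set was 331.6, 335.6 and 357.9 on the KO HVT arrays, 193.9, 393.7 and 535.4 on KO SpV, 458.6, 408.4 and 281.3 on WT HVT, and 247.4, 155.8 and 261.6 on WT SpV. The WT HVT and the KO HVT arrays were all above the WT SpV arrays, and KO SpV array 1 lay among the WT SpV values. The means were 341.7 ± 14.2 in KO HVT, 374.3 ± 171.6 in KO SpV, 382.8 ± 91.4 in WT HVT and 221.6 ± 57.4 in WT SpV (SD, n = 3 each).

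The WT HVT minus WT SpV difference of Slc39a14 was 0.75 ± 0.32, a 1.68-fold higher signal in WT HVT, with an interval of 0.06 to 1.44 and an adjusted p of 0.563 in limma. The difference was the 195th highest of the 9294 genes. Groups without overlap in that direction, by any margin, were seen for 7.91% of all genes. The KO SpV minus WT SpV difference was 0.64 ± 0.32 (interval -0.05 to 1.33, adjusted p = 0.402), and without KO SpV array 1 it was 1.04 ± 0.25 (adjusted p = 0.0527). In KO lungs ventilation gave -0.02 ± 0.32 (adjusted p = 0.992), or -0.41 ± 0.25 without that array (adjusted p = 0.325). The KO HVT minus WT HVT difference was -0.13 ± 0.32 (adjusted p = 0.893). The interaction was -0.77 ± 0.45 (adjusted p = 1), or -1.17 ± 0.33 without KO SpV array 1 (adjusted p = 0.157). The averages were 0.37 ± 0.22 for ventilation (adjusted p = 0.501) and 0.25 ± 0.22 for genotype (adjusted p = 0.553).

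The dimmer probe set of Slc39a14 did not show this order. It read 223.6, 290.3 and 222.3 on the KO HVT arrays, 480.2, 138.7 and 179.3 on KO SpV, 363.9, 151.1 and 250.3 on WT HVT, and 377.1, 147.7 and 269.4 on WT SpV. All groups overlapped, and the log2 differences were -0.04 ± 0.44 for WT ventilation and -0.10 ± 0.44 for genotype in SpV lungs. The r of the brighter probe set with Mt2 was 0.791, in place 29 of all genes, and with Mt1 0.706, in place 126. The genes closest to it were Srrm1 (r = 0.919), Tgfbi (0.901), Gadd45g (0.900) and Nfkbia (0.891), of which Nfkbia encodes the inhibitor that holds NF-kappa-B in the cytosol.

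Around these members, a list of metallothionein and zinc transporter genes together with Mtf1, the gene of MTF1, gave 17 other genes that were measured. With ventilation 6 of them were higher and 11 lower in KO lungs, with a median of -0.07, and 14 were higher and 3 lower in WT lungs, with a median of 0.06. Between genotypes 3 were higher and 14 lower in KO HVT against WT HVT lungs, with a median of -0.17, and 8 were higher and 9 lower in KO SpV against WT SpV lungs, with a median of -0.01. The medians over all genes were -0.001, -0.036, 0.014 and -0.013 in the same order. In limma 0 of the 17 were called in any of the 4 comparisons, with 1, 1, 2 and 1 at an unadjusted p under 0.05. Over all genes the share with such a p was 10.6% for ventilation in KO, 8.02% for ventilation in WT, 12.8% for genotype in HVT and 13.8% for genotype in SpV lungs. Without KO SpV array 1 the counts called were 1, 0, 1 and 0, with the importer Slc39a6 as the gene called.

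**Figure D5:**
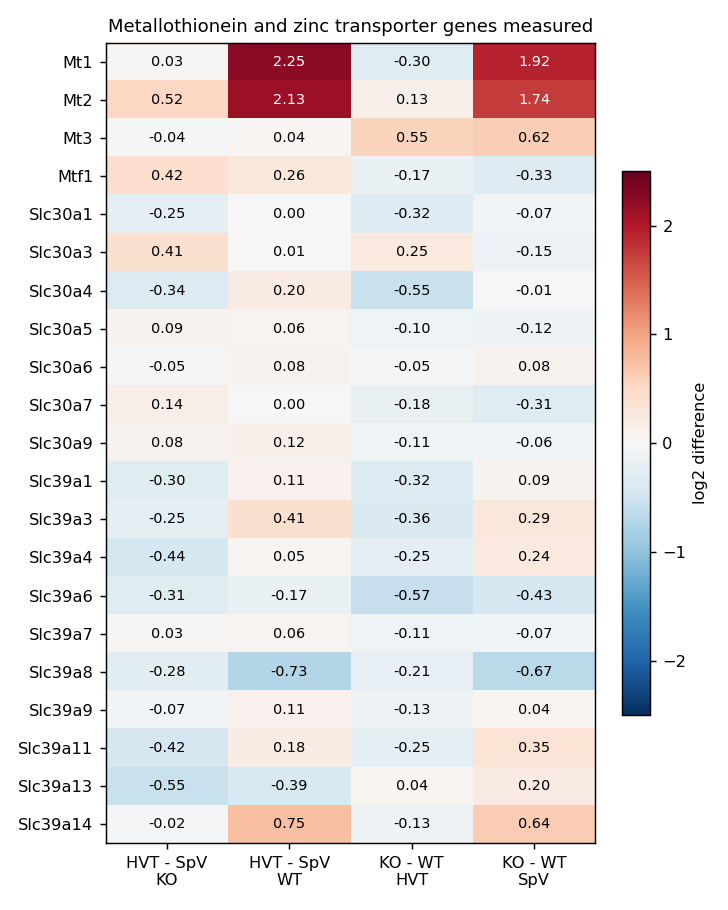
Fitted log2 differences of 21 measured genes (rows), the metallothioneins, the zinc transporters and Mtf1, in 4 comparisons (columns). Red is for higher in the first-named group and blue for lower. Mt1 and Mt2 reach 1.74 to 2.25 in 2 columns, and the values of the other genes lie between -0.73 and 0.75.

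Among the importers, Slc39a8 had the smallest p in WT lungs. It encodes a carrier of zinc and manganese that also takes up cadmium. Its signal was 2167.3, 2902.9 and 3351.3 in WT HVT lungs, from the lowest to the highest, against 3878.9, 4633.1 and 5390.6 in WT SpV lungs. The WT HVT arrays were all lower, with a difference of -0.73 ± 0.22 that was not called (adjusted p = 0.349 in limma), and 9.22% of all genes had all WT HVT arrays lower. With the actin ratio as a covariate or with array weights it was called, at a lowest adjusted p of 0.0274. KO SpV lungs, at 2107.3, 3061.8 and 3735.9, were also all below WT SpV, by -0.67 ± 0.22 (adjusted p = 0.222), as were 9.54% of all genes. Slc39a8 thus had its highest signals in the group in which Mt1 and Mt2 had their lowest, though neither difference passed the test.

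Slc39a4, the importer best known from intestinal zinc uptake, read 757.8, 765.8 and 810.9 in KO HVT lungs against 1000.9, 1020.1 and 1157.4 in KO SpV lungs, a difference of -0.44 ± 0.14 without overlap (adjusted p = 0.335), where 7.62% of all genes had all KO HVT arrays lower. Slc39a6 read 510.8, 518.7 and 583.4 in KO HVT against 704.8, 781.8 and 946.4 in WT HVT lungs (-0.57 ± 0.25, adjusted p = 0.355), where 13% of all genes had all KO arrays lower. Of the 9 other importers, 8 were lower in KO HVT than in KO SpV lungs, with a median of -0.30, and 3 were lower in WT HVT than in WT SpV lungs, with a median of 0.06. The 6 other exporters had medians of 0.08 for ventilation in KO and 0.07 for ventilation in WT. Slc30a4, which loads zinc into vesicles, read 354.7, 376 and 535.4 in KO HVT against 553, 619.2 and 686.5 in WT HVT lungs (-0.55 ± 0.22, adjusted p = 0.315). No importer or exporter was called in these comparisons.

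Of the other metallothioneins, Mt3, known as the brain form, was the only one that passed the filter on low signal. It read 371.6, 405.6 and 476.3 in KO HVT lungs, 279, 334 and 825.6 in KO SpV, 247.9, 290.5 and 300.6 in WT HVT and 184.9, 305.8 and 350.6 in WT SpV. Both ventilated groups were close to the resting group of their genotype, with differences of -0.04 in KO and 0.04 in WT, and the genotype differences of 0.55 in HVT and 0.62 in SpV lungs were not called. All its KO HVT arrays were above all WT HVT arrays, as for 12.4% of all genes. Averaged over breathing the genotype difference was 0.59, with an unadjusted p under 0.05 in limma, as for 21.4% of all genes, and it was not called. Mt3 thus had neither the low WT SpV group nor the ventilation difference that describe Mt1 and Mt2, which were chosen for them.

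Mtf1, the zinc sensor that switches on Mt1, Mt2 and Slc30a1 in mice, read 354.3, 357 and 536.6 in KO HVT lungs, 185.1, 190.7 and 747.6 in KO SpV, 313.4, 510.8 and 611.2 in WT HVT, and 282.5, 356.3 and 550.5 in WT SpV. All groups overlapped. Besides the members, 6 genes of a list of Mtf1 and its targets were measured, and 1 was called in a comparison of 2 groups, genotype in HVT lungs, where 0.742% of all genes were. This was Gclc, the catalytic subunit of the enzyme that starts glutathione synthesis and a target of Nrf2 as well. It read 2284.7, 2429.1 and 2824.4 in KO HVT lungs against 5824.5, 6483.1 and 6952.2 in WT HVT lungs, and it fell, with a difference of -1.35 ± 0.23 (adjusted p = 0.0201). The call was lost when KO HVT array 2 or 3 or any 1 of the 3 WT HVT arrays was left out, at adjusted p of 0.0591 to 0.124. In SpV lungs it read 1886.1, 3353.1 and 3488 in KO and 2727.5, 3529.9 and 4208.1 in WT, with overlap. Gclc and Csrp1, which encodes a zinc-binding LIM protein, fell in KO lungs averaged over breathing, with differences of -0.82 ± 0.16 (adjusted p = 0.018) and -0.71 ± 0.12 (adjusted p = 0.00916), in a comparison that called 3.74% of all genes. In KO HVT lungs Gclc was thus below its WT HVT level, while the Mt1 and Mt2 differences between these groups were not called.

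Genes that answer to interleukin-6 and STAT3 gave another contrast. Of 15 measured besides the members, 2 were higher and 13 lower in KO HVT than in KO SpV lungs, with a median of -0.25, and 14 were higher and 1 lower in WT HVT than in WT SpV lungs, with a median of 0.42. Between genotypes 5 were higher and 10 lower in HVT lungs, with a median of -0.26, and 13 were higher and 2 lower in SpV lungs, with a median of 0.60. In limma 0 of the 15 were called in any of these, with 3, 6, 3 and 6 at an unadjusted p under 0.05, beside 10.6%, 8.02%, 12.8% and 13.8% of all genes. No test of the list against all genes was made.

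Socs3, the feedback inhibitor of STAT3 signalling, read 688.9, 1350.2 and 2073.3 in KO HVT lungs, 1910.1, 2029.5 and 4441.7 in KO SpV, 2360.4, 3763.8 and 5982.9 in WT HVT, and 814.6, 820.5 and 867.9 in WT SpV. Like Mt1 and Mt2 it was above WT SpV on all KO SpV and all WT HVT arrays, by 1.61 ± 0.42 (adjusted p = 0.122) and 2.15 ± 0.42 (adjusted p = 0.162). Unlike theirs, all its KO HVT values were below all WT HVT values, by -1.58 ± 0.42 (adjusted p = 0.134). Over all genes 8.9%, 7.91% and 13% had groups apart in these 3 directions. None of the Socs3 differences was called, though without KO SpV array 1 those of WT ventilation and of genotype in HVT lungs, and the interaction, were. Junb, an AP-1 subunit, read 789.1, 802 and 1555.5 in KO HVT, 1495.8, 1661.7 and 2321.7 in KO SpV, 1663, 1838.8 and 3089.4 in WT HVT, and 531.4, 709.3 and 1056.6 in WT SpV, in the same order of groups.

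Glucocorticoids are another inducer of the metallothioneins. Of 15 measured glucocorticoid-responsive genes besides the members, 7 were higher and 8 lower in KO HVT than in KO SpV lungs, with a median of -0.01, and 13 were higher and 2 lower in WT HVT than in WT SpV lungs, with a median of 0.58. Between genotypes 4 were higher and 11 lower in HVT lungs, with a median of -0.37, and 10 were higher and 5 lower in SpV lungs, with a median of 0.17. Again 0 of the 15 were called in limma, with 2, 6, 3 and 3 at an unadjusted p under 0.05, beside the same 10.6%, 8.02%, 12.8% and 13.8% of all genes. Dusp1, a phosphatase that turns off MAP kinases, had a WT HVT minus WT SpV difference of 1.10 ± 0.32 (adjusted p = 0.339). Pdk4, which restrains glucose oxidation, read 1249, 2261.3 and 4624.4 in KO HVT against 134.7, 569.4 and 1079.4 in KO SpV lungs, a difference of 2.37 ± 0.60 without overlap (adjusted p = 0.227), where 6.75% of all genes had all KO HVT arrays higher. Without KO SpV array 1 both of these differences were called. The lists overlap, since Cebpd, Nfkbia and others answer to several signals, and they hold Mt1 and Mt2, which were left out of these counts.

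Of 10 listed copper-handling genes, 8 were measured besides the metallothioneins, and 0 were called in limma in any comparison of 2 groups, with 1 at an unadjusted p under 0.05. This was Atox1, the copper chaperone of the secretory route, with a WT HVT minus WT SpV difference of -0.52 ± 0.16 (adjusted p = 0.349) and all WT HVT arrays lower, as for 9.22% of all genes. The medians of the 8 were -0.02 for ventilation in KO, -0.03 for ventilation in WT, 0.00 for genotype in HVT and -0.12 for genotype in SpV lungs.

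Levels of cell type markers were set beside these results, and in bulk lung RNA fewer cells of a type and less RNA per cell cannot be told apart. Levels are means of the log2 values of a list's measured markers, relative to the mean of all arrays. For 4 of 4 smooth muscle markers the level was 0.11 to 0.49 in KO HVT, 0.12 to 0.49 in KO SpV, -0.20 to 0.16 in WT HVT and -0.50 to -0.42 in WT SpV, so that WT SpV was lowest, as for Mt1 and Mt2. All 4 were higher in KO SpV than in WT SpV lungs. One of them, Cnn1, was called (1.19 ± 0.18, adjusted p = 0.0136 in limma), as were 0.334% of all genes.

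For 5 of 5 heart muscle markers the level was 0.49 to 0.89 in KO HVT, 0.12 to 0.49 in KO SpV, -0.97 to 0.05 in WT HVT and -0.77 to -0.13 in WT SpV, higher on every KO array than on every WT array. All 5 were higher in KO HVT than in WT HVT lungs and 3 were called (Myh6, Tnnt2 and Myl7), as were 0.742% of all genes. Averaged over breathing all 5 were higher in KO and 4 were called, as were 3.74% of all genes. For 6 of 6 alveolar type I markers the level was -0.96 to -0.55 in KO HVT, -0.98 to 0.41 in KO SpV, 0.01 to 0.59 in WT HVT and 0.44 to 0.81 in WT SpV. Averaged over breathing all 6 were lower in KO and 4 were called, beside the same 3.74% of all genes. For 6 of 6 endothelial markers the level was -1.11 to -0.61 in KO HVT, -1.17 to 0.34 in KO SpV, 0.06 to 0.75 in WT HVT and 0.55 to 0.97 in WT SpV. Averaged over breathing 5 of the 6 were lower and 1 was higher in KO, and 3 of the lower ones were called, beside the same 3.74% of all genes. All 4 platelet markers were higher in KO under both kinds of breathing. Only Ppbp was called, in both, beside 0.334% of all genes in SpV and 0.742% in HVT lungs.

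For 5 of 6 neutrophil markers the level was -1.23 to -0.70 in KO HVT, -0.02 to 1.68 in KO SpV, -0.48 to 0.72 in WT HVT and -0.11 to 0.35 in WT SpV, so it was lowest in KO HVT, where Mt1 and Mt2 were high. For 3 of 6 macrophage markers it was -1.19 to -0.26 in KO HVT, -1.61 to 1.23 in KO SpV, 0.17 to 0.36 in WT HVT and 0.38 to 0.50 in WT SpV. None of the endothelial, neutrophil or macrophage markers was called between 2 groups. For alveolar type I, endothelial, neutrophil and macrophage markers KO SpV array 1 set the low end of its group, and the other KO SpV arrays were at 0.41 and 0.19 for alveolar type I, 0.34 and 0.12 for endothelial, 1.68 and 0.99 for neutrophil and 1.23 and 0.65 for macrophage markers. For 2 of 5 red cell markers the level was -0.55 to -0.48 in KO HVT, 0.07 to 1.42 in KO SpV, -0.99 to -0.46 in WT HVT and 0.54 to 1.06 in WT SpV, so it was lower on every HVT array than on every SpV array. Averaged over genotypes both markers were lower with ventilation. Slc4a1 was called (-1.62 ± 0.24, adjusted p = 0.0382 in limma), as were 0.108% of all genes. Of 4 liver markers, an organ rich in metallothionein, only Alb passed the filter, at a mean signal of 128.8. No measured marker was at 0, and the part of cell composition in the Mt1 and Mt2 differences was not tested.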

How the data were processed

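The authors deposited 1 probe set signal per array, a linear intensity that the submitters' processing notes credit to GCOS 1.4. The design text describes scaling to an average of 500, which the deposited intensity values do not show. Each array was therefore scaled to a mean of 500, trimmed by 2% at each end, and the 12 arrays were quantile normalized. The 64 control probe sets were left out, and probe sets with a normalized signal of at least 100 on at least 3 arrays and 1 annotated gene (14510) were kept. The annotation gives 1 gene to 20380 probe sets, several to 691 and none to 1555. A gene was represented by its brightest probe set, which left 9294 genes, and all 6 member probe sets passed the filter. Differences were taken on log2(signal + 16), which understates changes of dim genes.

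A model of group means was run with limma 3.58.1 (R 4.3.3; lmFit, eBayes with intensity trend, 8 residual degrees of freedom), with 7 contrasts and Benjamini-Hochberg adjustment over all genes, two-sided. The median SE was 0.231 between 2 groups, and precision is limited by how few arrays there are. Exact permutation tests of 3 against 3 reach no lower than p = 0.1 and were not used. The highest deposited signal of an array was 12045.6 to 14271.7, above every Mt1 and Mt2 value. The fit did not pair samples by replicate number. Deviations of same-numbered arrays correlated between -0.172 and 0.395, and 7 of 12 arrays correlated best with an array of their own number. These values do not settle whether the numbers pair the samples.

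Members, lists and contrasts were chosen with earlier results of these data known. Named are the members, the called genes of each list or those with the smallest p, some with their values only, and the genes closest to each member. Alternatives covered scaling, pseudocount, filter, probe set, actin ratio, array weights, replicate block, trend and each array left out.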

Additional observations from a re-analysis of the deposited data

How the results depend on the processing

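For the 4 genes, 575 of 588 recomputed values stayed within the spread between arrays or on their side of the threshold. Of these, 34 had another sign than a difference that was never called. The other 13 of the 588 are given here. A tested difference that was not called counted as unchanged while it stayed uncalled. Slc39a14 did so when its other probe set took WT ventilation from 0.75 to -0.04. The remaining values are those that chose Mt1 and Mt2, so the count is no measure of how firm the differences are. Limits come from 3 arrays a group and from KO SpV array 1. Leaving out each array in turn gave Mt1 differences of 2.05 to 2.49 for WT ventilation and 1.73 to 2.15 for genotype in SpV, and Mt2 differences of 1.97 to 2.37 and 1.37 to 2.22, where the highest is without KO SpV array 1. The Mt2 interaction was -2.09 to -1.24, and the lowest value is without the same array. With no scaling, Mt1 and Mt2 stood at 1.32 and 1.09 for genotype in SpV, where the median of all genes was -0.47. Array weights gave 2.33 and 2.40 there and interactions of -2.67 and -2.32, and they brought Slc39a14 past the threshold, at 1.01 in SpV (adjusted p = 0.00606 in limma) and 0.54 averaged over breathing (adjusted p = 0.028), with a fit of the weights that did not converge fully. The other Mt1 probe set, chosen after seeing the data, gave 1.69 for WT ventilation, 1.04 for genotype in SpV and -1.73 for the interaction. The cause of these shifts was not tested. With the replicate block, Mt1 stayed at 2.25 for WT ventilation and 1.92 for genotype in SpV, and no call of the 4 genes changed; 7 of 12 arrays correlated best with an array of their own number.

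The number of genes called over the whole table was less stable. It was 0 for ventilation in KO, 7 for ventilation in WT, 69 for genotype in HVT, 31 for genotype in SpV, 0 for the interaction, 10 for averaged ventilation and 348 for averaged genotype. Leaving out 1 array gave 0 to 600, 2 to 45, 16 to 485, 11 to 173, 0 to 82, 1 to 647 and 122 to 625, with each highest count reached without KO SpV array 1. Other settings gave 0 to 1423, 0 to 431, 26 to 549, 7 to 1433, 0 to 173, 1 to 1559 and 99 to 1478, with each highest count under array weights. For the 17 other genes of the zinc and metallothionein list, Mtf1 included, array weights gave 4, 1, 1 and 2 calls in the first 4 of these comparisons. The fit as reported gave 0 in each, and the actin ratio as a covariate gave 1 for ventilation in WT. Without scaling the call of Gclc in HVT was lost (-2.19, adjusted p = 0.197), as were those of Gclc and Csrp1 averaged over breathing.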
